A study of Mus musculus with 2 samples.

Results

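Chloride cotransporters and ClC chloride channels and exchangers were examined in the hippocampus of 5xFAD/CAST mice as a set of 8 listed genes: Slc12a5, Slc12a2, Slc12a4, Slc12a7, Clcn2, Clcn3, Clcn6 and Clcn7. They were found by symbol among 55536 annotated genes, and all 8 had values in both libraries. The set was listed by name and not by a rule on measured values. Earlier results of these data were known when it was chosen. Total RNA, 300 ng per library, came from tissue labelled as layer of hippocampus of adult male mice of strain 5xFAD/CAST aged 8 to 10 months. The data are 2 libraries, biological replicates 1 and 2 of 1 group, which carry 1 donor identifier, so each SD below describes these samples alone and may hold only technical spread. 5xFAD mice express human APP with familial Alzheimer mutations from the neuronal Thy1 promoter, and CAST is a wild-derived mouse strain. Every sample carried the transgenic background and mice without it were not analysed here, so no comparison between genotypes was made.

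Chloride sets the sign and size of the GABA response of a neuron. The sodium-potassium-chloride cotransporter NKCC1, encoded by Slc12a2, brings chloride into cells, and the potassium-chloride cotransporters of the KCC group carry it out. KCC2, encoded by Slc12a5, is restricted to neurons and keeps neuronal chloride low enough for GABA to inhibit. Among the ClC proteins, ClC-2 (Clcn2) is a plasma membrane channel of neurons and glia, whereas ClC-3 (Clcn3) and ClC-6 (Clcn6) exchange chloride for protons on endosomes and ClC-7 (Clcn7) does so on lysosomes.

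The set spanned a 45.3-fold range of level, with the neuronal extruder Slc12a5 at the top and Slc12a7 at the bottom. Levels are given as TPM, a transcript abundance scaled for length and library depth, which can be set side by side between genes. They cover all transcripts of a gene, coding or not. Mean TPM placed the genes in the order Slc12a5, Clcn3, Clcn2, Clcn6, Clcn7, Slc12a2, Slc12a4, Slc12a7, and all 8 kept their place in each library alone. Of 7 neighbouring pairs in that order, the values of 1 pair, Clcn2 and Clcn6, overlapped between the libraries. The closest pair that did not overlap was Clcn7 and Slc12a2, where the lower Clcn7 value was 23.78 TPM and the higher Slc12a2 value was 22.85 TPM. In bulk tissue, a lower level can come from fewer cells of a type or from less RNA per cell, and these cannot be told apart.

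**Figure D1:**
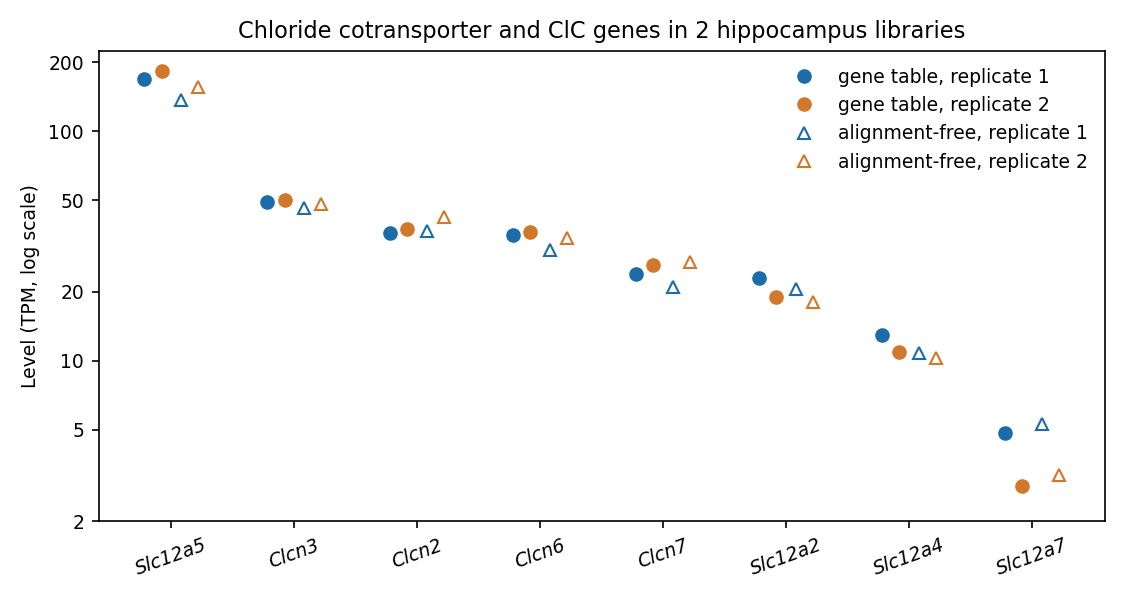
Level of each chloride gene in TPM on a log scale, in replicate 1 (blue) and replicate 2 (orange); filled circles are the gene table and open triangles the alignment-free transcript table summed per gene. Slc12a5 lies above the other genes at 168.4 and 182 TPM in the gene table and Slc12a7 lies lowest at 4.87 and 2.86 TPM.

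Slc12a5 lies on chromosome 2 at chr2:164960802-164999731 (mm10, plus strand). It had 168.4 TPM in replicate 1 and 182 TPM in replicate 2, from 12376 and 13683 expected counts, or 175 ± 9.62 TPM (SD, n = 2). By mean TPM it ranked 376 of 13294 protein-coding genes with at least 1 TPM in both libraries. Its mean was 3.52 times that of Clcn3, the next gene of the set.

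Slc12a2, at chr18:57878678-57946821 (plus strand), had 22.85 TPM in replicate 1 and 18.88 TPM in replicate 2, from 2626 and 2320 expected counts (20.9 ± 2.81 TPM, SD, n = 2). The level of Slc12a5 over that of Slc12a2, the extruder over the loader, was 7.37-fold in replicate 1 and 9.64-fold in replicate 2. On the log2 scale this ratio was 3.08 ± 0.27 (SD, n = 2), and it was 2.93 ± 0.27 in the alignment-free table. Slc12a5 therefore stood above Slc12a2 in both libraries and both tables, by a margin larger than its spread. The margin was smaller in replicate 1, where Slc12a2 was higher and Slc12a5 lower than in replicate 2.

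Slc12a4 encodes KCC1, a widely expressed potassium-chloride cotransporter, and lies at chr8:105943590-105966097 on the minus strand. It had 12.91 TPM in replicate 1 and 10.92 TPM in replicate 2 (11.9 ± 1.41, SD, n = 2), from 676 and 666 expected counts. Slc12a7, at chr13:73733094-73816754 on the plus strand, encodes KCC4, best known from kidney and inner ear. It had 4.87 TPM in replicate 1 and 2.86 TPM in replicate 2 (3.87 ± 1.42, SD, n = 2), from 240 and 188 expected counts, so its level was the least precise of the set. The authors' intervals for the Slc12a7 level ran from 4.06 to 7.80 TPM in replicate 1 and from 2.68 to 5.50 TPM in replicate 2.

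Slc12a5 took most of the expression of the 3 KCC genes in the set. Of their sum, 191 ± 6.79 TPM (SD, n = 2), Slc12a5 made up 90.5% in replicate 1 and 93.0% in replicate 2. Slc12a4 made up 6.26 ± 0.959% and Slc12a7 2.04 ± 0.817% of that sum (SD, n = 2). The share of Slc12a7 was the smallest in both libraries.

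Clcn3 lies at chr8:60910389-60983300 on the minus strand. It had 49.24 TPM in replicate 1 and 50.27 TPM in replicate 2 (49.8 ± 0.728, SD, n = 2), from 4478 and 4929 expected counts. Clcn2, at chr16:20702964-20717746 on the minus strand, had 36.05 TPM in replicate 1 and 37.58 TPM in replicate 2 (36.8 ± 1.08). These 2 genes, an intracellular exchanger and a plasma membrane channel, had separate ranges. Clcn6, at chr4:148004259-148038821 on the minus strand, had 35.22 TPM in replicate 1 and 36.43 TPM in replicate 2 (35.8 ± 0.856). Clcn7, at chr17:25133391-25162104 on the plus strand, had 23.78 TPM in replicate 1 and 26.16 TPM in replicate 2 (24.97 ± 1.68). By TPM over all transcripts, the lysosomal Clcn7 was thus the lowest of these 4 ClC genes. The log2 ratio of Clcn3 over Clcn7 was 1.00 ± 0.08 (SD, n = 2).

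Clcn2 stood just above Clcn6 within each library of the gene table, with a log2 ratio of Clcn2 over Clcn6 of 0.04 ± 0.01 (SD, n = 2), while their ranges across the libraries overlapped. In the alignment-free table the same ratio was 0.29 ± 0.02, so their distance depended on the quantification. The end of Clcn2 overlaps the protein-coding gene Fam131a on the opposite strand, which held 5943 and 7728 expected counts, and its start overlaps Polr2h, with 103 and 179. The library kit marks strand, and the strand setting of the counting is not given in the sources used here.

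Clcn1 to Clcn7 summed to 206 ± 4.71 TPM (SD, n = 2). Clcn4, an endosomal exchanger that pairs with ClC-3, held 25.7 ± 0.567% of that sum and Clcn3 24.2 ± 0.199%. Clcn2 held 17.9 ± 0.117%, Clcn6 17.4 ± 0.0177% and Clcn7 12.1 ± 0.540%. Clcn3 stood just below Clcn4 in both libraries, with a log2 ratio of Clcn3 over Clcn4 of -0.09 ± 0.02.

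Each gene is annotated with several transcripts, 61 in all and between 2 and 11 per gene, and 20 of them held at least 10% of their gene's TPM in both libraries in one of the deposited transcript tables. One such table was made from alignments to the transcriptome (alignment-based) and the other without an alignment (alignment-free). For 8 of 8 genes the leading transcript was the same in both libraries and both tables, by TPM and by count. These were Slc12a5-201, Slc12a2-201, Slc12a4-202, Slc12a7-201, Clcn2-201, Clcn3-203, Clcn6-205 and Clcn7-201, all of them protein coding. The deposited tables assign reads to transcripts by estimation, so a share of a transcript is an estimate and not a count of reads that are unique to it.

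Slc12a5 transcripts start from either of a pair of first exons, which give KCC2 different amino termini. The upstream exon starts the long form, known as KCC2a, and the downstream exon starts the form known as KCC2b, described as the main one of the mature brain. The upstream first coding exon, as annotated by GENCODE M21 on mm10 at chr2:164960883-164961003, is shown with the start codon in capitals because its use is measured next.
Slc12a5 upstream first coding exon: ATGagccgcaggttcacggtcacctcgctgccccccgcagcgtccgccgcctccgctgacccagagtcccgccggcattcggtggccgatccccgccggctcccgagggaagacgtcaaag
In Slc12a5-201, Slc12a5-207, Slc12a5-208 and Slc12a5-209 both first exons join the same next exon. Slc12a5-207, with the upstream exon, has 1133 codons, Slc12a5-209, also with the upstream exon, has 1138, and Slc12a5-201, with the downstream exon, has 1115.

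Among Slc12a5 transcripts with either first exon, those with the upstream exon held 23.6% of TPM in replicate 1 and 31.9% in replicate 2 in the alignment-based table (27.7 ± 5.90, SD, n = 2). Those with the downstream exon held the other 76.4% and 68.1%. In the alignment-free table the upstream share was 46.2% in replicate 1 and 51.2% in replicate 2 (48.7 ± 3.54), so the downstream exon led clearly in 1 table and the exons were close to equal in the other. The upstream share was lower in replicate 1 than in replicate 2 in both tables.

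The transcripts behind that difference can be named. Slc12a5-201 had 72.77 and 63.09 TPM in the alignment-based table and 56.1 and 53.9 TPM in the alignment-free one. Slc12a5-207 had 27.59 and 35.93 TPM in the alignment-based table, and 23.9 and 30.2 TPM in the alignment-free one. These full-length forms kept their order in both tables. Slc12a5-208, a transcript of 1202 bases that joins the downstream start to the far end of the gene, had 36.91 and 41.42 TPM in the alignment-based table but 8.03 and 11.7 TPM in the alignment-free one. Slc12a5-209, which has the upstream start and lacks most of the last exon, had 6.27 and 14.35 TPM in the alignment-based table and 27.8 and 35.3 TPM in the alignment-free one. The alignment-free table thus gave less to Slc12a5-208 and more to Slc12a5-209 in both libraries.

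**Figure D2:**
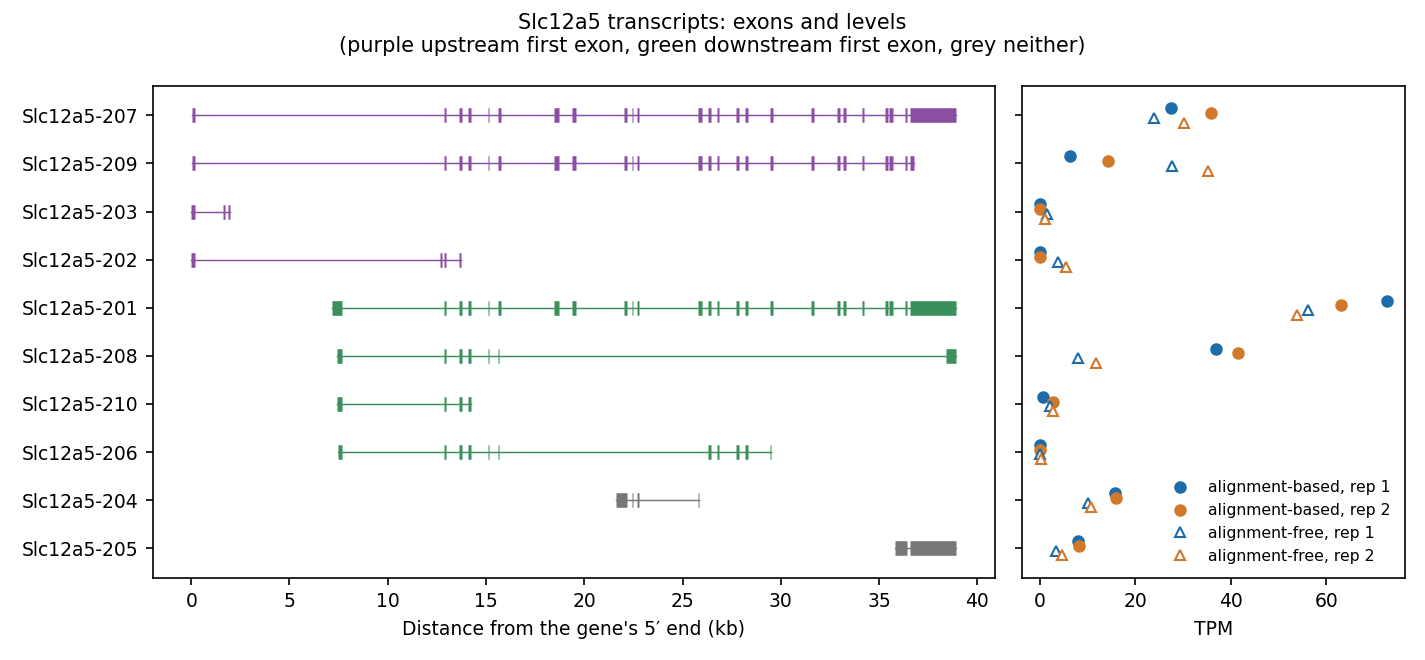
Exons of the 10 annotated Slc12a5 transcripts by distance from the 5′ end of the gene in kilobases (left) and their TPM in replicate 1 (blue) and replicate 2 (orange; right), with filled circles for the alignment-based and open triangles for the alignment-free table. Slc12a5-201 is highest in each library and table, and Slc12a5-208 and Slc12a5-209 differ most between tables.

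A further exon of 15 bases, at chr2:164996864-164996878, is present in Slc12a5-201 and Slc12a5-209 and absent from Slc12a5-207. It adds 5 codons and is shown because its share is measured across both starts.
Slc12a5 15-base exon: ggagtgggaaaactt
Of the TPM of these 3 coding transcripts, those with the exon held 71.2 ± 4.11% by the alignment-based estimate (SD, n = 2) and 76.3 ± 2.24% by the alignment-free one. Since the exon and the downstream start occur together in Slc12a5-201, the shares are not separate measurements.

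Clcn3 is annotated with 3 coding starts, shown with the start codon in capitals because the leading transcript uses the one farthest downstream. They lie on the minus strand of mm10, at chr8:60975732-60975891 in Clcn3-204, at chr8:60954543-60954621 in Clcn3-202 and at chr8:60941257-60941400 in Clcn3-203.
Clcn3-204 first coding exon: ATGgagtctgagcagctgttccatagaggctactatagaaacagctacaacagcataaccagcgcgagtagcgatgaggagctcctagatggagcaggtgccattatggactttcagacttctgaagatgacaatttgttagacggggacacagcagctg
Clcn3-202 first coding exon: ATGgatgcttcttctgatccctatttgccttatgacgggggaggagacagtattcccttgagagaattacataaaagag
Clcn3-203 first coding exon: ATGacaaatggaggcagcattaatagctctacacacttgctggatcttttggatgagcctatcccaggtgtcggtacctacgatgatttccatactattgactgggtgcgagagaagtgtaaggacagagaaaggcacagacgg
Clcn3-203 has 760 codons, Clcn3-202 has 791 and Clcn3-204 has 818.

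Clcn3-203 had 28.59 TPM in replicate 1 and 29.37 TPM in replicate 2, or 58.2 ± 0.26% of the gene's TPM (SD, n = 2). Clcn3-204 had 9.11 and 7.94 TPM, or 17.2 ± 1.92%. In the alignment-free table the share of Clcn3-203 was 44.9% in replicate 1 and 46.9% in replicate 2, and that of Clcn3-204 was 24.9% and 25.8%. The order of these transcripts was the same in both tables. Transcripts with the upstream first exon, from which both Clcn3-203 and Clcn3-204 begin, held 81.8 ± 0.828% of the TPM of transcripts with either first exon in the alignment-based table and 76.7 ± 1.45% in the alignment-free table. The downstream first exon, which Clcn3-202 uses, held the rest.

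An exon of 76 bases near the end of Clcn3 changes the carboxyl terminus of ClC-3. It lies at chr8:60914753-60914828 and is shown as the sequence whose inclusion was measured.
Clcn3 76-base exon: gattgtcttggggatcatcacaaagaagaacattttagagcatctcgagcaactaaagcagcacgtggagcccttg
Transcripts with the exon held 5.03 ± 0.117% of the TPM of the 5 coding Clcn3 transcripts by the alignment-based estimate (SD, n = 2) and 8.97 ± 2.80% by the alignment-free one. The form without it made up most Clcn3 RNA in both libraries.

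Clcn6 has a pair of full-length coding transcripts that differ at 1 splice site and in their ends. Clcn6-205 keeps 9 bases at the start of an exon at chr4:148024109-148024224 (minus strand), in capitals here because they tell the forms apart.
Clcn6 longer exon: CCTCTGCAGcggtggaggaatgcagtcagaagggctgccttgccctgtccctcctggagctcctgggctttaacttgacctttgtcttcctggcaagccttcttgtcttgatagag
Clcn6-205, with these bases, had 23.45 TPM in replicate 1 and 24.62 TPM in replicate 2, and Clcn6-201, without them, had 8.14 and 8.71 TPM. The longer form made up 74.0 ± 0.258% of the pair by the alignment-based estimate (SD, n = 2) and 70.4 ± 2.00% by the alignment-free one. The split of Clcn6 was thus nearly equal between libraries and close between tables.

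Slc12a4-202 and Slc12a4-201 differ by 6 coding bases at the end of the first coding exon, at chr8:105965919-105966039 (minus strand). The extra bases of Slc12a4-201 are in capitals.
Slc12a4-201 first coding exon: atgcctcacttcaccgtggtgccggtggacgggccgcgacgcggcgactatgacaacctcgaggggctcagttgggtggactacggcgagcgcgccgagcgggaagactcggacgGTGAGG
Slc12a4-202 had 9.85 TPM in replicate 1 and 7.08 TPM in replicate 2, and Slc12a4-201 had 0 and 2.05 TPM in the alignment-based table. In the alignment-free table Slc12a4-201 had 1.51 and 1.09 TPM. Slc12a4-201 was therefore listed at 0 in replicate 1 by 1 table only, and its difference between libraries did not hold across tables.

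Clcn2 was the gene of the set with the largest share of TPM in transcripts annotated as retaining an intron, a class that GENCODE does not annotate as coding. That share was 62.6% in replicate 1 and 56.9% in replicate 2 (59.7 ± 4.02, SD, n = 2), and 57.3 ± 1.45% in the alignment-free table. Among 7784 protein-coding genes that have such a transcript and a mean of at least 1 TPM, the median share was 14.0%, with quartiles of 6.20% and 27.3%, and 96.6% of these genes had a lower share than Clcn2. By expected count instead of TPM the Clcn2 share was 49.8% in replicate 1 and 43.0% in replicate 2. The coding transcript Clcn2-201 had 12 TPM in replicate 1 and 14.07 TPM in replicate 2 of the gene's 36.05 and 37.58 TPM. The retained-intron transcript Clcn2-207 had 6.34 and 6.88 TPM, Clcn2-208 had 4.51 and 4.92 TPM, and Clcn2-206 had 5.09 and 2.24 TPM. On coding transcripts alone Clcn2 therefore held 35.4 ± 2.92% of its TPM, against 90.6 ± 1.25% for Clcn6, whose total level overlapped that of Clcn2.

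**Figure D3:**
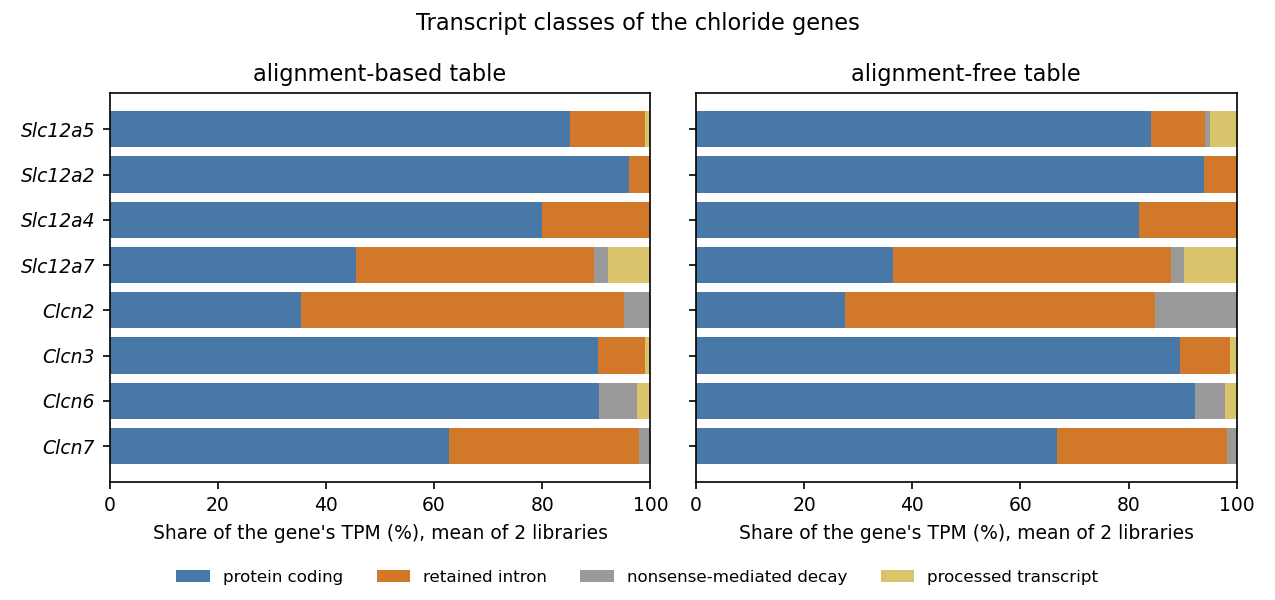
Share of each gene's TPM (%, mean of both libraries) held by transcripts of each annotated class, in the alignment-based table (left) and the alignment-free table (right). Retained-intron transcripts take 59.7% of Clcn2, 44.1% of Slc12a7 and 35.1% of Clcn7 in the alignment-based table, and Clcn6 has none annotated.

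In Slc12a7 the retained-intron share was 50% in replicate 1 and 38.2% in replicate 2 (44.1 ± 8.31, SD, n = 2). It rested on few reads: Slc12a7-206, 356 bases long, had 1.81 and 0.83 TPM from 8.41 and 4.12 expected counts, and by count the share was 18.9% and 15.7%. Slc12a7-208 was listed at 0 in the alignment-based table and had 0.68 and 0.76 TPM in the alignment-free one. The coding Slc12a7-201 had 2.05 TPM in replicate 1 and 1.39 TPM in replicate 2. In Clcn7 the retained-intron share was 33.5% in replicate 1 and 36.8% in replicate 2 by TPM, and 6.78% and 7.54% by count. Its short Clcn7-205, of 584 bases, had 6.20 and 7.98 TPM from 54.42 and 74.85 expected counts. In both genes the share by TPM was thus carried by short transcripts. The shares were 20.05 ± 5.17% in Slc12a4, 13.8 ± 0.551% in Slc12a5, 8.77 ± 0.201% in Clcn3 and 4.01 ± 0.274% in Slc12a2, which has 2 annotated transcripts. By TPM, Slc12a2 was the gene with the largest coding share, 96.0 ± 0.274%, while by count Clcn6 had the largest, 98.4 ± 0.104%, against 97.2 ± 0.187% for Slc12a2.

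Clcn7-201, the leading Clcn7 transcript, had 12.02 TPM in replicate 1 and 15.74 TPM in replicate 2. Clcn7-206, which has a longer coding exon of 265 bases and was chosen after its values were seen, held 16.4% of the TPM of the 3 long coding transcripts in replicate 1 and 4.78% in replicate 2. The alignment-free table gave 24.4% and 9.32%, so this share was higher in replicate 1 in both tables.

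Between the libraries the genes of the set differed little. For each gene the expected counts were scaled by TMM, edgeR's trimmed-mean scaling, and the log2 ratio of replicate 1 over replicate 2 was set beside its exact 95% interval for counting error. None of the 8 genes was more than 2-fold apart, where 340 of 16971 genes with a mean of at least 20 expected counts (2.00%) were. The interval left out equal levels for 2 of 8 genes, both higher in replicate 1, against 29.1% of all genes in either direction, 14.4% higher and 14.7% lower in replicate 1. The median absolute log2 ratio was 0.07 in the set and 0.12 over all genes. The set's share past the counting interval was thus near that of all genes.

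Slc12a2 was 1.24-fold higher in replicate 1 than in replicate 2, a log2 ratio of 0.31 with an interval of 0.23 to 0.39. Slc12a7 was 1.39-fold higher in replicate 1, a log2 ratio of 0.48 with an interval of 0.20 to 0.76. On TPM the Slc12a7 ratio was larger, 0.77 on the log2 scale, since the length the authors assigned to the gene was 2716 bases in replicate 1 and 3392 bases in replicate 2. For the other 6 genes the interval held equal levels. Slc12a4 had a log2 ratio of 0.15 (-0.01 to 0.31) and Clcn2 of -0.09 (-0.19 to 0.01). Clcn6, Clcn7, Slc12a5 and Clcn3 had ratios of -0.04, -0.04, -0.02 and -0.01.

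Among the scalings by TMM, DESeq2 size factors, library size and spike-ins, the ratio changed sign for Slc12a4 alone. Scaling by the ERCC spike-in RNAs moved the median of all genes by -0.27 on the log2 scale, and Slc12a2 then stood at 0.04, Slc12a7 at 0.21 and Slc12a4 at -0.12. Under that scaling the interval left out equal levels for 5 genes, Slc12a5, Clcn2, Clcn3, Clcn6 and Clcn7, all lower in replicate 1, and for neither Slc12a2 nor Slc12a7. Spike-in scaling moves all genes by almost the same amount, so the place of Slc12a2 and Slc12a7 relative to the median could not change.

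Markers of choroid plexus, an epithelium known for abundant Slc12a2, moved in the same direction. All 7 of 7 were higher in replicate 1, their summed level was 1196 TPM in replicate 1 and 183 TPM in replicate 2, their median log2 ratio was 2.76, and none was at 0. The 6 striatal markers were also all higher in replicate 1, with summed levels of 145 and 61.6 TPM, and the 4 hippocampal neuron markers were all lower in replicate 1, with 760 and 998 TPM, so the labelled tissue was present in both libraries. The 5 markers of neurons in general summed to 1869 TPM in replicate 1 and 2045 TPM in replicate 2. The 4 endothelial markers, all higher in replicate 1, summed to 67.9 and 58.4 TPM, and the 5 of mural cells and fibroblasts, 4 of them higher, to 106 and 96.0 TPM. Summed levels in replicates 1 and 2 were 471 and 462 TPM for astrocytes, 1418 and 1397 TPM for oligodendrocytes, 39.6 and 37.4 TPM for their precursors and 219 and 209 TPM for microglia. The part of any of these markers in the Slc12a2 and Slc12a7 ratios was not tested.

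**Figure D4:**
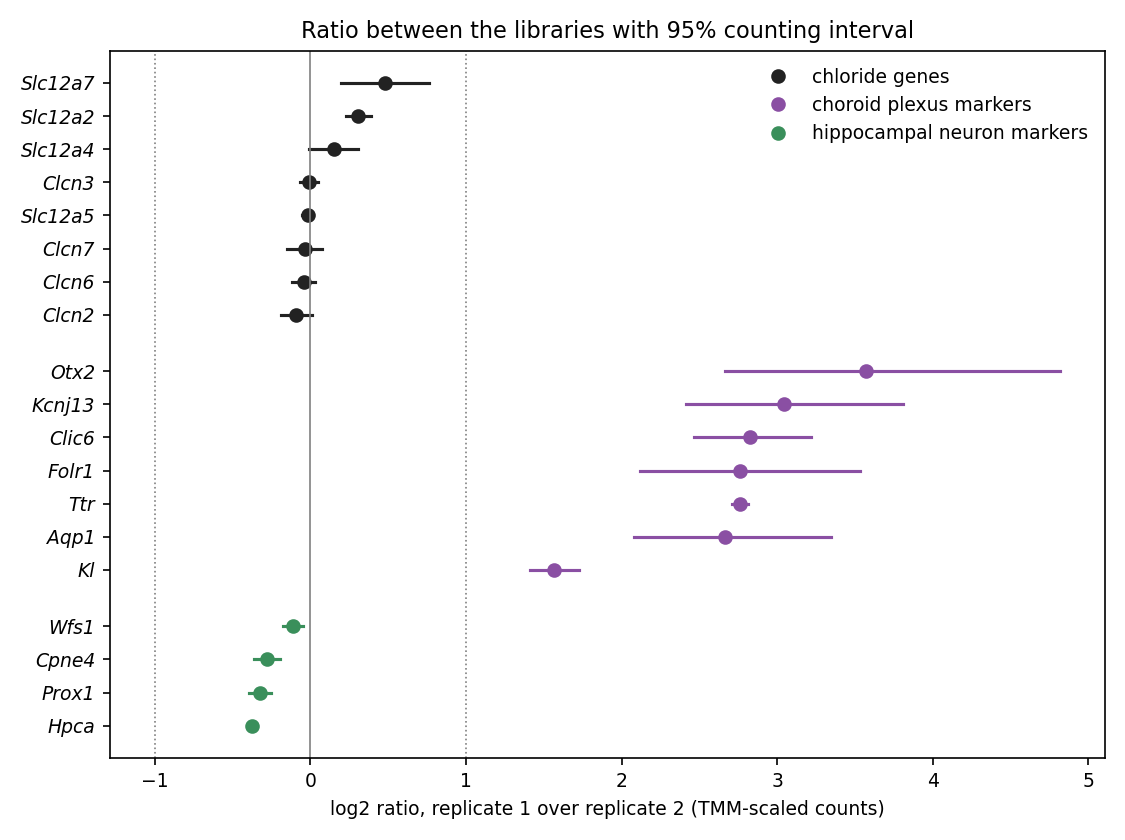
Log2 ratio of replicate 1 over replicate 2 (points) with its 95% interval for counting error (lines) for the 8 chloride genes (black), choroid plexus markers (purple) and hippocampal neuron markers (green); dotted lines mark 2-fold. The chloride genes lie between -0.09 and 0.48, all choroid plexus markers above 1 and all hippocampal neuron markers below 0.

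The alignment-free table gave more counts than the gene table to every gene of the set. The ratio of alignment-free over alignment-based counts was lowest for Slc12a5, at 1.12, and highest for Clcn2, at 1.23 (means of both libraries). The median of the set was 1.15, beside 1.14 over the 7460 protein-coding genes that held 500 or more expected counts, whose quartiles were 1.12 and 1.17. Clcn2 and Slc12a7, at 1.23 and 1.22, lay above the upper quartile, and the other 6 genes lay between the quartiles. With 240 and 188 expected counts, Slc12a7 is itself below the 500 required of the genes behind these quartiles. Clcn2 and Slc12a7 were also the genes with the largest retained-intron shares by TPM.

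Other genes of chloride transport were taken from 7 lists of 38 genes, of which 29 reached 1 TPM in both libraries. Of the 30 with a mean of at least 20 expected counts, 0 were more than 2-fold apart between libraries, and by the counting interval 5 were higher and 6 lower in replicate 1, or 36.7% against 29.1% of all genes. No test between conditions exists for these lists. Among the remaining cation-chloride cotransporters, Slc12a9, whose transport role is not settled, had 16.45 and 16.87 TPM in replicates 1 and 2. The kidney cotransporters Slc12a1 (NKCC2), with 0.19 and 0.11 TPM, and Slc12a3 (NCC), with 0.37 and 0.42 TPM, were below 1 TPM, as was Slc12a8, with 0.43 and 0.77 TPM. Slc12a2 was therefore the main sodium-coupled chloride loader measured in the Slc12 family.

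Among the remaining Clcn genes, Clcn4 had 52.83 and 52.89 TPM in replicates 1 and 2. Clcn5, an endosomal exchanger best known from kidney, had 3.81 and 4.30 TPM, and Clcn1, the skeletal muscle channel, had 1.68 and 1.64 TPM. Clcn3 exceeded Clcn5 by 3.62 ± 0.10 and Clcn2 exceeded Clcn1 by 4.47 ± 0.07 on the log2 scale (SD, n = 2).

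Among partners of the ClC proteins, Ostm1 stood at the level of its exchanger by TPM over all transcripts of each gene. Retained-intron transcripts held 33.5% of Clcn7 TPM in replicate 1 and 36.8% in replicate 2. Ostm1 was not split by transcript, so coding levels were not compared. Ostm1, the obligate partner of ClC-7 on lysosomes, had 24.03 TPM in replicate 1 and 25.38 TPM in replicate 2, and the log2 ratio of Clcn7 over Ostm1 was 0.01 ± 0.04 (SD, n = 2). Hepacam encodes GlialCAM, which binds ClC-2 in glia, and had 28.67 and 30.56 TPM. The log2 ratio of Clcn2 over Hepacam was 0.31 ± 0.02. Mlc1, which forms a complex with GlialCAM in astrocytes, had 70.33 and 69.77 TPM. Across all transcripts of each gene, Clcn2 was thus above Hepacam. The coding transcript Clcn2-201 alone had 12 and 14.07 TPM. Hepacam was not split by transcript, so the coding levels of these genes were not compared.

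The kinases that switch the cotransporters, activating NKCC1 and inhibiting KCCs by phosphorylation, were present in both libraries. Wnk1 was highest, with 91.30 and 97.99 TPM in replicates 1 and 2, followed by Wnk2 with 42.08 and 43.34 TPM and Wnk3 with 16.48 and 16.23 TPM. Their substrates Stk39, which encodes SPAK, and Oxsr1 had 35.26 and 33.99 TPM and 15.62 and 15.33 TPM. The scaffold Cab39 had 51.12 and 62.79 TPM, and Cab39l had 18.32 and 11.65 TPM. Of the 8 genes of this list, 2 lay outside counting error as higher in replicate 1, Cab39l with a log2 ratio of counts of 0.45 and Wnk1 with 0.06. Cab39 lay outside it in the other direction with -0.10. Over all genes 14.4% were outside it as higher and 14.7% as lower, so these counts are not read as a result about the kinases. The TPM of Wnk1 was lower in replicate 1.

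The volume-regulated anion channel subunits Lrrc8a, Lrrc8b, Lrrc8c and Lrrc8d had 26.75 and 25.86, 22.69 and 26.57, 12.61 and 12.08, and 21.43 and 25.76 TPM in replicates 1 and 2. Lrrc8a, the subunit that every such channel needs, was thus at a level close to that of Clcn7. Of the bicarbonate transporters that can exchange chloride, Slc4a10 had 85.85 and 92.82 TPM, Slc4a3 64.46 and 49.17 TPM, Slc4a8 30.38 and 30.72 TPM and Slc4a2 25.63 and 15.84 TPM. Slc4a2 had a log2 ratio of 0.66 (0.53 to 0.79), larger than that of Slc12a2. Slc4a10 stood at -0.03 (-0.08 to 0.02), and Slc26a4 went the other way, at -0.71 (-1.02 to -0.41). Of the 6 genes of this list with a mean of at least 20 counts, 2 were outside counting error higher and 2 lower in replicate 1. Over all genes these shares were 14.4% and 14.7%. The choroid plexus marker values above go the same way as the ratios of Slc4a2 and Slc4a3. The other 4 of these 6 ratios, that of Slc4a10 included, were below 0. The part of the markers in any of these ratios was not tested. No gene of the calcium-activated and cAMP-activated channel list reached a mean of 10 TPM.

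**Figure D5:**
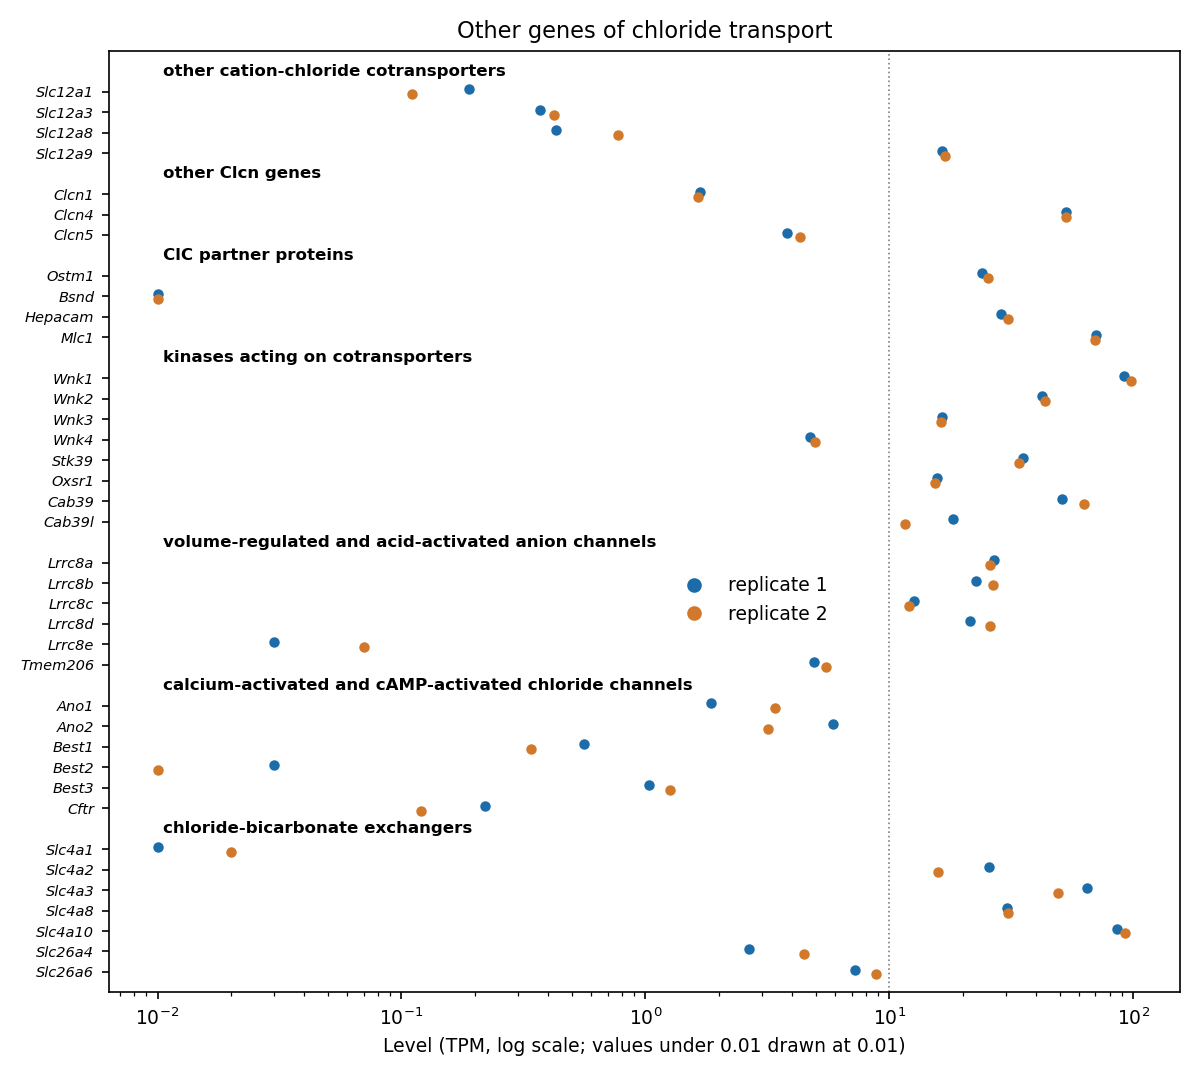
Level in TPM (log scale) of the 38 other chloride transport genes in replicate 1 (blue) and replicate 2 (orange), grouped by list; the dotted line marks 10 TPM, and values under 0.01 TPM are drawn at 0.01. Wnk1 at 91.30 and 97.99 TPM and Slc4a10 at 85.85 and 92.82 TPM are the highest.

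Promoter windows were matched for 7 of the 8 genes, in 11 windows of 250 bases before an annotated start (RefSeq, GRCm38.p6). The windows of Slc12a5 are shown because the use of its first exons was compared, and those of Clcn6 and Clcn7 because they hold CACGTG, the core of the element that TFEB binds at lysosomal genes. Bases inside an annotated first exon were left out of the printed windows, and CACGTG is in capitals. The windows lie at chr2:164960596-164960801 and chr2:164967738-164967982 for Slc12a5 (plus strand), at chr4:148038822-148039063 for Clcn6 (minus strand) and at chr17:25133141-25133390 for Clcn7 (plus strand).
Slc12a5 upstream promoter: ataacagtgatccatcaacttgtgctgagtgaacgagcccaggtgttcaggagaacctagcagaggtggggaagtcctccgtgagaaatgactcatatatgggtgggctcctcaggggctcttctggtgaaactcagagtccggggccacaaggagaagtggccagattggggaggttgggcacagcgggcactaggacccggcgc
Slc12a5 downstream promoter: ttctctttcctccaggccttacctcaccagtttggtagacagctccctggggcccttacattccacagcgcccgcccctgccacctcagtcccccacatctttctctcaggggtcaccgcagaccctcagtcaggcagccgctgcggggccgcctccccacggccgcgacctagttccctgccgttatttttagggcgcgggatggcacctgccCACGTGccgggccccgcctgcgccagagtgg
Clcn6 promoter: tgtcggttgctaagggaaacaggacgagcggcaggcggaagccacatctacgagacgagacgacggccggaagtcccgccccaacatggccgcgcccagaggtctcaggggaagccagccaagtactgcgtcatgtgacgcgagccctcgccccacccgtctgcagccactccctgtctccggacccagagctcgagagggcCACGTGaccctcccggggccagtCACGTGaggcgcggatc
Clcn7 upstream promoter: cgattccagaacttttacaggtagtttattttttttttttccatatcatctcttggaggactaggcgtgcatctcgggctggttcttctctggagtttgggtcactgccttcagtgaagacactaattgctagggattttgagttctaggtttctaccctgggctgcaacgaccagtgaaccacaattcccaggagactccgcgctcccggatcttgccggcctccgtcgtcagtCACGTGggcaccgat
Of the Clcn3 windows, the downstream one, which lies inside the first exon of Clcn3-202, had 39.2% G and C bases and 7 CpG dinucleotides, and the upstream one had 68.4% and 27. Over all 32851 RefSeq windows the medians were 52.4% and 6. CACGTG, which reads the same on both strands, was found in 4 of 11 windows, against 6.02% of all windows. The 4 windows were those of Clcn6, with 2 copies, and 1 each of Clcn7, Slc12a5 (downstream start) and Slc12a7. GGGCGG, searched on both strands, was in 7 of 11 windows against 32.7% of all. TGACGTCA, which reads the same on both strands, and TATAAA, searched on both, were in 0 of 11 windows, against 1.55% and 12.4% of all. These windows were few and some overlap. Most had more G and C bases and more CpG dinucleotides than the medians, and the background was not matched for either. These counts are therefore a description of the sequence and not of enrichment or binding.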

How the data were processed

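Per the notes deposited with the libraries, quantification used mm10 and GENCODE M21, once from transcriptome alignments (a gene and a transcript table per library) and once without alignment (a transcript table). Which aligner and quantifiers were used is not given in the sources used here. Expected counts, per the file headers, are reads that the authors assigned by estimation and need not be whole. TPM and FPKM were deposited already scaled for length and depth. A deposited percent column gives the part of a gene's TPM in each alignment-based transcript. The deposited quartile variation score and the bounds of the TPM interval come from the authors' posterior estimates. Totals were 26128897 expected counts in replicate 1 and 28689423 in replicate 2. A single count was worth 0.0383 and 0.0349 CPM, and 0 counts allow up to 3. Intervals and floors cover counting error only.

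With 1 group there was no test between conditions. Expected counts were rounded for edgeR 4.0.16 (R 4.3.3), which gave TMM factors, and a prior count of 0.5 was added before log2 ratios of genes with a mean of at least 20 counts. Intervals are exact conditional binomial at 95%. Alignment-free values were summed per gene. The steps were tested on simulated data. Alternatives used DESeq2 1.42.0 size factors, library size, ERCC spike-ins, other units, thresholds and prior counts, and each replicate alone. Python 3.11.15, numpy 2.4.6, pandas 2.3.3, scipy 1.17.1 and matplotlib 3.10.9 did the rest.

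Named were all 8 members, list genes with a mean of at least 10 TPM, further Slc12a and Clcn genes at any level, and transcripts with at least 10% of a member's TPM in both libraries in either table. Slc26a4, below 10 TPM, was named because its ratio goes against that of Slc4a2. The members and lists were chosen with earlier results of these data known. Some listed genes and 1 sequence are not reported here. Transcript positions and coding sequences are from GENCODE M21 and promoter windows from RefSeq (GRCm38.p6). Reads from CAST alleles were assigned on an assembly of another mouse strain, and the effect on these genes was not tested.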

Additional observations from a re-analysis of the deposited data

How the results depend on the processing

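The level of Slc12a5 over Slc12a2 was 2.88 to 3.27 on the log2 scale with each replicate left out. It moved by less than the spread between replicates with posterior mean TPM, alignment-free TPM and a pseudocount of 1. FPKM differs from TPM by a constant factor within each library, so it could not change this ratio or the order within a library. The order of levels held for 8 of 8 genes, and the leading transcript for 8 of 8, under every alternative run for them, each replicate left out included (lowest and highest 8). Each order used levels over all transcripts of a gene, and an order on coding transcripts alone was not run. It need not be the same. In the alignment-based table, the coding Slc12a2-201 had 21.89 TPM in replicate 1 and 18.16 TPM in replicate 2. It stood above Clcn7-201, with 12.02 and 15.74 TPM, and Clcn2-201, with 12 and 14.07 TPM. Leaving out a replicate could not change the leading transcript, which was already the same in both libraries and both tables. No gene of the set was more than 2-fold apart under any scaling, quantification, filter or prior count run. The count of genes outside counting error, 2 with TMM, was 3 with DESeq2 size factors, library size or alignment-free counts, with Clcn2 added under DESeq2 and Slc12a4 under each of the others, and 5 with spike-in scaling, which shifts all genes together. Over all genes, 340 were more than 2-fold apart, 6416 without a filter on low counts and 82 at a mean of at least 100 counts, so the filter set that number. The median ratio of alignment-free over alignment-based values in the set was 1.15 by count (1.15 to 1.16 with each replicate left out) and 0.936 by TPM, which is scaled within each table. Of 64 single-gene ratios between libraries under the alternatives, 55 moved by less than the distance from the counting interval's middle to its end. Another 9 moved further (7 of them with spike-ins), and 0 turned a called direction. Only the ratios of Slc12a2 and Slc12a7 could do so, because no other gene was called with TMM. Among the genes not called, Slc12a4 changed sign with spike-ins (-0.12) and Clcn3 with alignment-free counts (0.04). The 55 include the ratios under the other count filters, which cannot change the ratio of a single gene. They also include those with a prior count of 2, which hardly moves a ratio at these counts. No paired analysis was possible because there is 1 group, and libraries without one of the replicates leave no ratio between them. Depth limits Slc12a7 most, at 240 and 188 counts.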
